A study of Mus musculus with 2 samples.

Results

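The HoxC cluster of the mouse is a row of 9 homeobox genes on chromosome 15, Hoxc13, Hoxc12, Hoxc11, Hoxc10, Hoxc9, Hoxc8, Hoxc6, Hoxc5 and Hoxc4, all transcribed from the forward strand. Binding of CTCF to it was read from chromatin immunoprecipitation and sequencing (ChIP-seq) of lung from mouse embryos at day 14.5. The genes span chr15:102921103-103036852 (mm10, which is GRCm38), and every CTCF peak summit in that span or within 100 kb of it on either side was taken. This gave 10 sites of the 54943 optimal sites on chromosomes 1 to 19 and X. The optimal list holds the peaks that passed the authors' optimal threshold of the irreproducible discovery rate (IDR). A site in it need not have a peak in both replicate lists. The 2 samples, replicates 1 and 2, formed 1 group with no other condition: lungs of both sexes of the B6NCrl strain, pulverised and pooled over several dissections. The labels give 1 biosample and 1 donor record for both, so differences between the replicates may be technical alone. With 1 group and lists of peaks in place of read counts, no test between groups could be made, the sequencing depth is unknown, and the results are counts, levels and positions. Expression was not measured, so the labelled tissue could not be checked against lung markers. In bulk tissue, binding in more cells and more binding per cell cannot be told apart.

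Hox genes encode homeodomain transcription factors that give cells their position along the body axis. Their order along the chromosome follows the order in which they are switched on in time and along the axis, with Hoxc4 the most anterior and Hoxc13 the most posterior of this cluster. Active and Polycomb-silenced Hox genes lie side by side in many tissues. CTCF is a zinc finger protein that binds a long, directional motif and stops cohesin as it extrudes chromatin loops. Loops form mostly between CTCF motifs that point toward each other, and CTCF sites within Hox clusters are known to separate active from silenced domains in embryonic cells.

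The sites inside the gene span are shown first, because their sequences carry the positions and directions that the later paragraphs describe. The 3 that held a match to the CTCF motif are printed 5′ to 3′ on the motif's own strand, with the 20-base match in capitals and 40 bases on each side. The matrix was learned from other chromosomes, and its consensus was TGGCCACCAGGGGGCGCTAG. The reference is the C57BL/6J genome, not the embryos' own DNA.
Hoxc12-Hoxc11 interval, chr15:102943413-102943512, reverse strand: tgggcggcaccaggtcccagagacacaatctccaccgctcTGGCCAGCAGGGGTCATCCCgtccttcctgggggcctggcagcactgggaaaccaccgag
Hoxc9-Hoxc8 interval, chr15:102987550-102987649, forward strand: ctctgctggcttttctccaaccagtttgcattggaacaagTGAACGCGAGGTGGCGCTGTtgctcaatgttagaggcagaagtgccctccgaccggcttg
Hoxc6-Hoxc5 interval, chr15:103013659-103013758, forward strand: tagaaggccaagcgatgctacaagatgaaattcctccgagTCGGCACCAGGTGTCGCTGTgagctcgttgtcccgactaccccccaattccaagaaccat
The other 2 sites inside the span, both at Hoxc10, had no match above the motif threshold. The one in the coding exon is printed on the forward strand from 50 bases before to 50 bases after the summit, with the best-scoring 20 bases in capitals although these fell short of the threshold.
Hoxc10 coding exon, chr15:102970897-102970997: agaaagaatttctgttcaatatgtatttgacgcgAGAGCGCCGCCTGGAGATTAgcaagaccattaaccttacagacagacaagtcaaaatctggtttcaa

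CTCF occupied 5 places inside the HoxC span, from the interval between Hoxc12 and Hoxc11 to the promoter of Hoxc5, and 5 more beyond Hoxc4. The 100 kb flank beyond Hoxc13 held 0 sites. Peak signal is the peak caller's own strength value in the authors' units, and its median over all optimal sites was 62.3. The sites inside the span had a median of 186.5 and ranged from 41.3 to 296.9. Those beyond Hoxc4 had a median of 29.0 and ranged from 18.0 to 106.3. The ranges overlapped, as the outermost flank site stood above 2 of the 5 inside. Per 100 kb, the span held 4.32 sites and its flanks 2.5, against 2.02 over the genome.

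**Figure D1:**
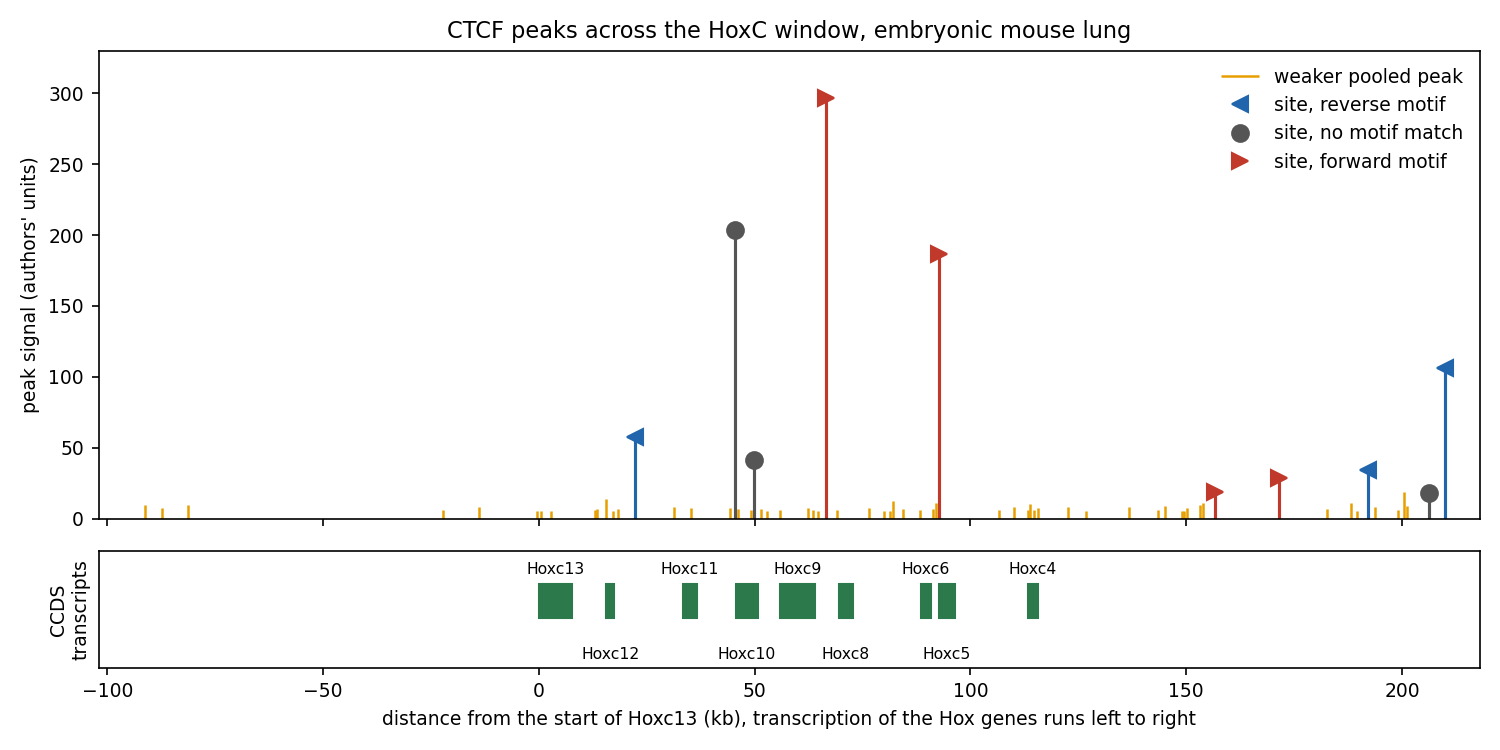
CTCF peaks of the HoxC window by distance from the start of Hoxc13 (horizontal, kb) and peak signal in the authors' units (vertical). Triangles point along the motif, circles have no motif match, thin lines are the weaker pooled peaks, and green boxes are the CCDS transcripts. The 3 tallest sites, at 186.5 to 296.9, lie between the Hoxc10 promoter and Hoxc5, and no site lies over or before Hoxc13 and Hoxc12.

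The strongest site lay between Hoxc9, a regulator of thoracic motor neuron identity, and Hoxc8, which patterns thoracic vertebrae and brachial motor neurons. Its peak was chr15:102987488-102987722, with the summit at 102987602. That is 3005 bp upstream of the Hoxc8 transcription start site (TSS) and 2503 bp past the end of Hoxc9. Its signal was 296.9, which placed it at percentile 94.1 of the optimal list (rank 3252). Replicate 1 listed 167.4 and replicate 2 listed 130.9. These stood at percentiles 94.7 and 93.2 among optimal sites with a peak in both replicate lists. Both replicates thus put it in the top 10% of those sites. Its motif TGAACGCGAGGTGGCGCTGT, at 102987590 to 102987609, pointed along the genes toward Hoxc8 and Hoxc4 and held 3 CpG dinucleotides. CpGs matter here as background, since methylation of CpGs in the motif can block CTCF.

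The next site lay at the promoter of Hoxc10, which patterns the lumbar region and hindlimb motor neurons. The peak chr15:102966488-102966691 had its summit at 102966606, 190 bp upstream of the TSS and outside any annotated transcript. The signal was 203.3 (percentile 83.2), with 119.1 in replicate 1 and 84.4 in replicate 2. This was the only one of the 3 strong sites without a motif match: its best score was 8.62 against a threshold of 10.8. The 201 bases around the summit held 16 CpGs, the most of the 10 sites, where the median over all optimal sites was 3. Sites of like strength mostly hold the motif, as 81.4% of those between percentiles 75 and 90 did.

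A second site at Hoxc10 lay in its coding sequence, in the peak chr15:102970802-102971091, with the summit at 102970947, 4151 bp downstream of the TSS. It was the weakest inside the span, at a signal of 41.3 (percentile 36.3), with 18.4 in replicate 1 and 22.6 in replicate 2. Here replicate 2 was the higher, whereas over all optimal sites replicate 1 stood above replicate 2 by a median ratio of 1.23. Its best motif score was 7.92, the lowest of the 10 sites. The microRNA gene Mir196a-2, whose product is known to target Hoxb8, began 2403 bp further on.

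The third of the strong sites lay between Hoxc6 and Hoxc5, genes of the cervical to thoracic region. Its peak was chr15:103013603-103013795 and its summit 103013700, 115 bp upstream of the start of the CCDS transcript of Hoxc5, 1819 bp past the end of Hoxc6 and 1210 bp before the microRNA gene Mir615. CCDS transcripts are the consensus protein-coding models. The signal was 186.5 (percentile 80.7), with 111.2 in replicate 1 and 75.3 in replicate 2. The motif TCGGCACCAGGTGTCGCTGT, at 103013699 to 103013718, again pointed forward and held 2 CpGs.

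The most posterior site lay between Hoxc12 and Hoxc11, genes expressed in the hindlimb and tail regions. The summit at 102943456, in the peak chr15:102943311-102943600, was 6699 bp downstream of the Hoxc12 TSS and 606 bp past the 3′ end of Hotair, a long non-coding RNA gene on the reverse strand. Its signal of 57.5 (percentile 47.5) was near the genome's median, and the replicates listed 29.8 and 29.0. The motif TGGCCAGCAGGGGTCATCCC, at 102943453 to 102943472, was the only one inside the span that pointed backward, toward Hoxc13. It held 0 CpGs.

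Beyond Hoxc4 the 5 sites were mostly weak, and 3 of them stood far higher in replicate 1. The nearest, with its summit at 103077861 and 43466 bp downstream of the CCDS start of Hoxc4, had a signal of 18.5, with 11.5 in replicate 1 and 4.45 in replicate 2. At 103092660 the signal was 29.0, with 24.7 and 3.74. At 103127402, in an intron of the long non-coding RNA gene D930007P13Rik, it was 18.0, with 12.9 and 3.34. At these 3 sites replicate 1 exceeded replicate 2 by 2.59, 6.61 and 3.87 times. The ratios lie at percentiles 97.0, 99.97 and 99.4 of the optimal sites with a peak in both replicate lists, 5% of which exceed 2.23. These percentiles are over sites of all strengths. Ratios spread more widely among weak sites, such as these, so the percentiles may overstate how unusual they were. All 3 were missing from the conservative list, which held 53101 peaks and was not a subset of the optimal list.

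The other 2 flank sites were alike in the replicates. The summit at 103113264 had a signal of 34.6, with 16.7 in replicate 1 and 17.2 in replicate 2. The summit at 103130952, in another part of D930007P13Rik, had the strongest flank signal, 106.3 (percentile 65.1), with 56.2 and 49.0. Both held the motif on the reverse strand, pointing back toward the Hox genes. The outermost sequence, shown because it belongs to the strongest peak of this flank and faces the cluster, was as follows.
Flank beyond Hoxc4, chr15:103130904-103131003, reverse strand: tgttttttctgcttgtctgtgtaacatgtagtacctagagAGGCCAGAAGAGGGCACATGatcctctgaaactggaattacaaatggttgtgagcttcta
This site and the one at 103092660 had their summits in sequence that the reference marks as repetitive.

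**Figure D2:**
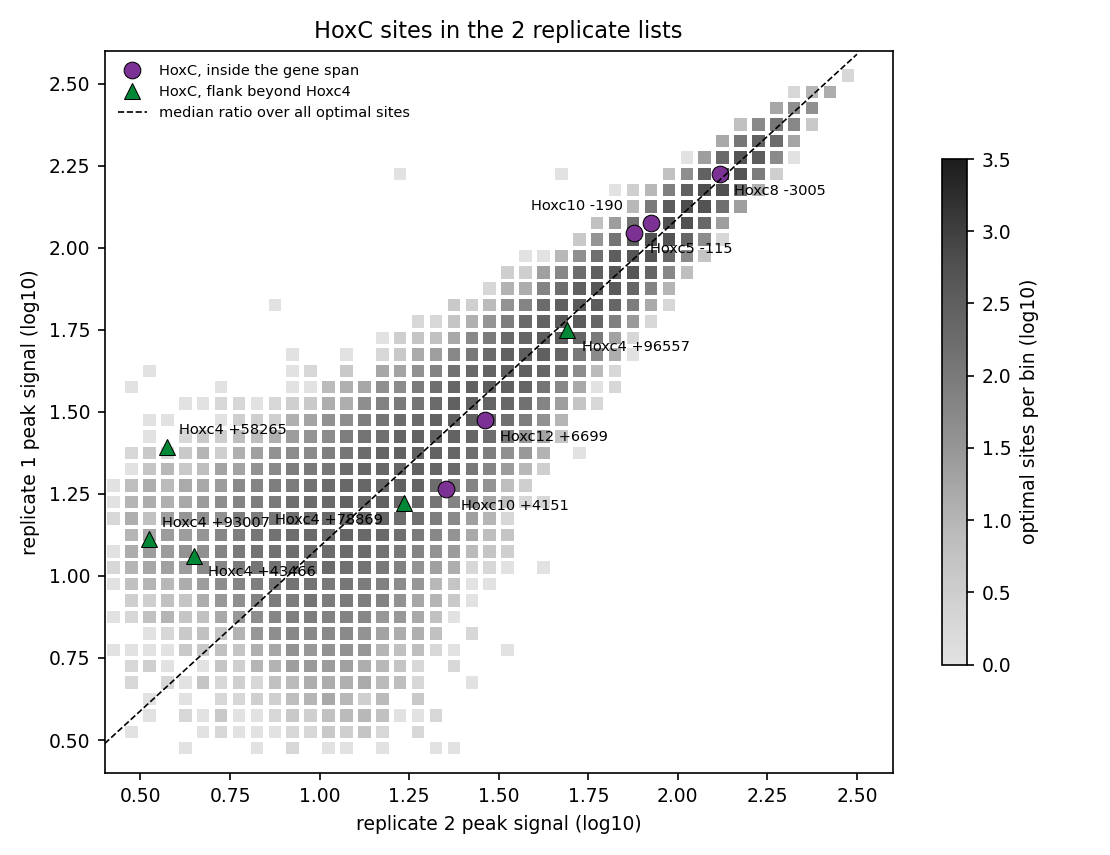
Peak signal of the 10 HoxC sites in replicate 2 (horizontal) and replicate 1 (vertical), both as log10, over all optimal sites counted in bins (grey). The dashed line is the median ratio of 1.23, names give the nearest Hox gene and the distance in bp from its CCDS start, and 3 flank sites stand far above the line.

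Peaks in both replicate lists were found for 10 of 10 HoxC sites, where the share over all optimal sites was 97.8%. Each replicate list held 300000 peaks, weak ones among them, so this share shows little. The optimal list itself did not require a peak in both, as the 97.8% shows. The conservative list held 7 of the 10, against 87.5% over all optimal sites. All 5 sites inside the span were in it, and 2 of the 5 beyond Hoxc4. Inside the span the ratio of replicate 1 to replicate 2 ran from 0.813 to 1.48, within the 5% to 95% range of all sites, 0.719 to 2.23.

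The motif was matched within 50 bp of the summit at 7 of the 10 sites (70%, 95% Wilson interval 39.7 to 89.2, counting error only), beside 60.3% of all optimal sites. This is near the background. At a threshold passed by 0.1% of shifted windows, 0 of the 10 held the motif, beside 15.3% of all optimal sites. With only 10 sites, this difference was not tested. The HoxC matches scored modestly: they lay at percentiles 3.47 to 56.5 of the scores of motif-bearing sites. The highest, 17.6, belonged to the flank site at 103092660, and the strongest binding site of the window scored 14.8. The flank site without a match, at 103127402, came close to the threshold with 10.3. CpG content separated the sets without overlap, with 6 to 16 CpGs in 201 bases inside the span and 0 to 3 beyond Hoxc4.

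Read from Hoxc13 to the far flank, the 7 motifs pointed backward once, forward 4 times and then backward in both outer sites. The neighbouring motifs at 102943456 and 102987602 diverged across Hoxc11, Hoxc10 and Hoxc9, 44146 bp apart. The next 3 pairs, from the site upstream of Hoxc8 through the Hoxc5 promoter into the flank, were in tandem. The single convergent pair, 20604 bp apart, lay wholly in the flank, between the forward motif at 103092660 and the reverse one at 103113264. That made 1 convergent pair of 6, beside 23.9% of adjacent pairs over the genome. The forward member of that pair was 1 of the 3 sites that stood far higher in replicate 1.

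Not every match to the motif was occupied. The window held 17 matches above the threshold: 7 at the optimal sites, 2 at weaker peaks and 8 with no peak of the pooled list. Over the genome, 21.7% of 155933 matches had an optimal summit within 50 bp, and 34% had that or a weaker pooled summit. The HoxC shares were 41.2% (95% Wilson interval 21.6 to 64.0) and 52.9% (31.0 to 73.8). The highest-scoring match without a peak scored 16.8, above that of the strongest site, and lay between Hoxc4 and the first flank site, at chr15:103045896-103045915 on the reverse strand. Inside the span, 3 of the 7 matches were at optimal sites, 2 at weaker peaks and 2, in Hoxc10 and Hoxc9, had no peak.

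By genes, 2 of the 9 HoxC genes, or 22.2%, had a site within 1 kb of the outermost annotated start, beside 26.6% of 21884 protein-coding genes. Of the 30 other Hox genes, 5 had one, or 16.7%. The 2 HoxC genes were Hoxc10 and Hoxc5, and they need care. The annotated gene Hoxc5 starts at 102967443, next to the Hoxc10 promoter, because of a long transcript that runs over Hoxc9, Hoxc8 and Hoxc6. By this start both genes were counted through the single site at 102966606. By CCDS starts, Hoxc10 kept that site and Hoxc5 had the one 115 bp upstream, so the count was again 2.

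For the other 7 genes the nearest site was more distant from the CCDS start. It lay 3005 bp upstream for Hoxc8, 4127 bp downstream for Hoxc6 and 6085 bp upstream for Hoxc9. For Hoxc12 it was 6699 bp downstream and for Hoxc11, another posterior gene, 10971 bp upstream. Hoxc4 and Hoxc13 were the most remote, at 20695 and 22353 bp. Hoxc13, a regulator of hair and nail keratins, sat with Hoxc12 in a stretch of 135.9 kb without an optimal site. Over the genome 6.54% of 54923 gaps between neighbouring sites were as long, and the median gap was 16.4 kb. The stretch ended on the far side 13537 bp outside the window, at a site in an intron of Gm36560 with a signal of 111.3. On the other side, the first site excluded was 19067 bp outside, in the coding sequence of the DNA repair gene Smug1, with a signal of 18.4.

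The list called on pooled reads held 56 further peaks in the window with signals of 5.03 to 19.1, all outside the optimal list. Inside the span there were 33, or 28.5 per 100 kb, against 8.97 per 100 kb over the genome. The other Hox spans had 34.2 (HoxA), 32.8 (HoxB) and 12.4 (HoxD) per 100 kb, and HoxA and HoxB thus stood above HoxC. The flank beyond Hoxc4 held 17 and that beyond Hoxc13 held 6. Of the 56, 9 were in both replicate lists (16.1%, beside 19.2% of all weaker pooled peaks), 21 in that of replicate 1 alone, 16 in that of replicate 2 alone and 10 in neither. A motif match was found at 2 of 56, beside 7.11% of such weaker peaks over the genome.

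One weaker peak lay at the Hoxc12 promoter. Its summit was 2 bp upstream of the TSS, and it was the strongest inside the span, with a signal of 13.5 (5.25 in replicate 1 and 6.87 in replicate 2). It held a reverse motif, shown because it is the only match at the start of a gene in the posterior stretch: CTACCGCCAGGGGGAGGGGT, at 102936731 to 102936750, with a score of 14.3. The other weaker peak with a match lay between Hoxc9 and Hoxc8, 4869 bp upstream of Hoxc8, with a reverse motif, a signal of 5.35 and a peak in replicate 2 alone (3.58).

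Further weaker peaks inside the span that ranked among the strongest 100000 of the pooled list were at Hoxc6, Hoxc5 and Hoxc4. The peak 6306 bp upstream of the Hoxc6 CCDS start had 12.7 and both replicates (5.53 and 6.51). The peak 668 bp upstream of Hoxc5, beside the strong promoter site, had 10.8 and both replicates (4.39 and 6.68). In the coding sequence of Hoxc4, 496 bp from its CCDS start, a peak had 10.1 and was listed in replicate 1 alone (5.8). The peaks nearest the CCDS starts of Hoxc13, Hoxc9, Hoxc8, Hoxc6 and Hoxc4 had signals of 5.03, 6.40, 6.07, 5.98 and 5.88. These lay below the median of 6.41 for weaker peaks over the genome. Those at Hoxc8 and Hoxc6 were listed in replicate 1 alone (3.85 and 3.19) and those at Hoxc13, Hoxc9 and Hoxc4 in neither replicate. Not all peaks near starts lay below that median. Besides those at Hoxc12, Hoxc5 and Hoxc4 above, a peak 478 bp downstream of the Hoxc10 start had 7.05. Another, 685 bp upstream of the annotated Hoxc6 start, had 7.42, while one 399 bp downstream of the Hoxc13 start had 5.03. In the flanks the strongest weaker peak, at 103121632 with 19.1, was in both replicates (11.8 and 7.92) and in the conservative list but not the optimal one. The next 4 had 11.2, 10.7, 9.76 and 9.67.

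The other Hox clusters give a scale for these values. With the same 100 kb flanks the HoxA window held 14 sites, HoxB 29 and HoxD 9. Inside the spans the density per 100 kb was 7.60 in HoxA, 10.9 in HoxB and 6.20 in HoxD, above the 4.32 of HoxC. Median signal inside the span was 186.5 in HoxC, 169.6 in HoxA, 176.2 in HoxD and 41.3 in HoxB. The HoxC span thus had the lowest density of the 4, and its median lay beside those of HoxA and HoxD. With 1 group of samples these differences were not tested.

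**Figure D3:**
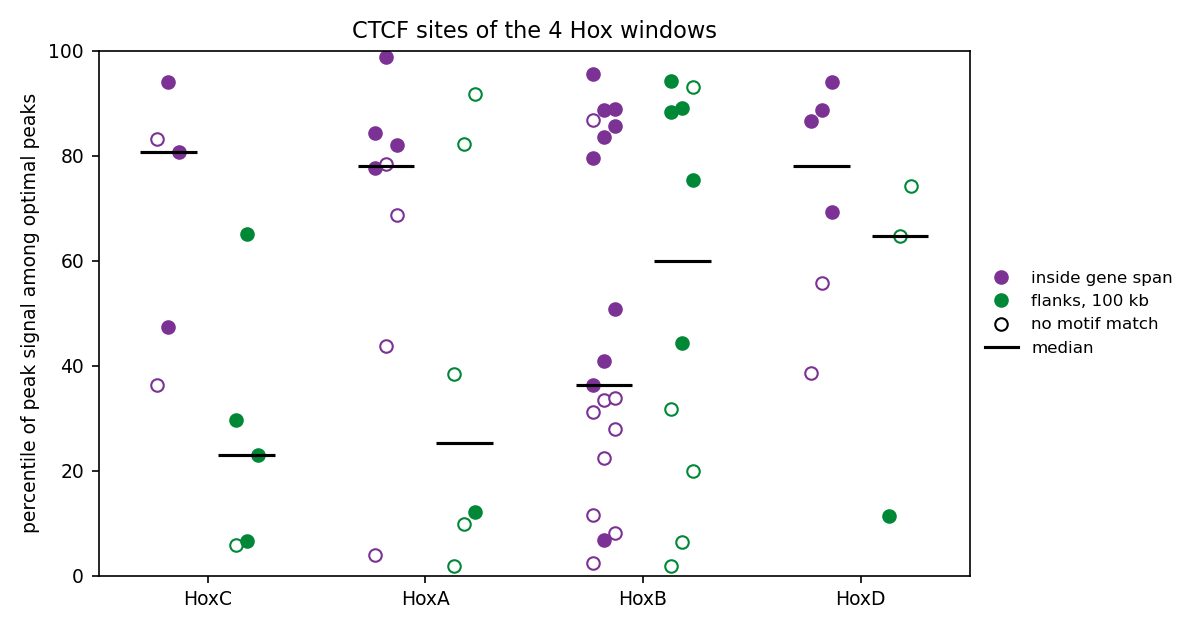
Percentile of peak signal within the optimal list (vertical) for each site of the 4 Hox windows, inside the gene spans (purple) and in the 100 kb flanks (green). Open circles have no motif match and bars are medians; inside HoxC the median percentile was 80.7, and in its flanks 22.9.

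Several HoxC sites had a counterpart at a like distance from a paralogue, the gene of the same number in another cluster. This was noticed after the positions were seen and is a description, within 8 kb upstream and 5 kb downstream of the CCDS start. No comparison with the number of sites expected from their density was made. A single site can count for neighbouring groups: those upstream of Hoxc5, Hoxa5 and Hoxb5 below also lay 4127, 4057 and 4087 bp downstream of Hoxc6, Hoxa6 and Hoxb6. In group 9, Hoxc9, Hoxb9 and Hoxd9 had a site 6085, 5570 and 5946 bp upstream, and Hoxa9 had 0. At group 5, Hoxa5, Hoxb5 and Hoxc5 had a site 78, 254 and 115 bp upstream of the start, with signals of 167.7, 314.7 and 186.5. Hoxa5 and Hoxb5 are known from mouse lung development. In each of the 3 the motif ran in the direction of the gene, and the matches are shown for comparison of their letters.
Hoxa5: TCTCCAGCGGGTGGCGCTCG
Hoxb5: TCGCCGGGAGGTGGCGCGCT
Hoxc5: TCGGCACCAGGTGTCGCTGT
Hoxc5 was identical to Hoxa5 at 13 of 20 bases and to Hoxb5 at 13. Against the 25 motif matches of the other Hox windows it ran from 7 to 14 with a median of 10, and the highest was a non-paralogous site at Hoxa13. The paralogues were thus no closer in letters than some other Hox sites. Within the same range Hoxa5 and Hoxb5 each had a further site without a motif, 7157 and 6288 bp upstream, with signals of 171.6 and 38.7, and Hoxc5 had none.

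In group 8 the sites lay further upstream. Hoxb8, Hoxc8 and Hoxd8 had a site 3771, 3005 and 2751 bp upstream, with signals of 221.6, 296.9 and 244.4, and all 3 motifs ran along the gene.
Hoxb8: TGGCCGCTAGATGGCATCCT
Hoxc8: TGAACGCGAGGTGGCGCTGT
Hoxd8: TGGCCACTAGAGAGCGCTGT
Hoxc8 was identical to Hoxb8 at 12 of 20 bases and to Hoxd8 at 13. Against all 25 matches it ran from 9 to 16 with a median of 11. Sites at Hoxa13 (16), between Hoxd8 and Hoxd4 (15) and at Hoxb5 (14) were closer than either paralogue site. Hoxb8 also had a site 1938 bp downstream without a motif (38.2). In group 10, the sites 190 bp upstream of Hoxc10 (203.3) and 143 bp upstream of Hoxd10 (75.5) both had no motif match. Each gene had a downstream site without a match, but at unlike distances: 4151 bp at Hoxc10 (41.3) and 2298 bp at Hoxd10 (44.0). Hoxd10 had 1 more site, its strongest, 5437 bp upstream with a motif (124.0), and Hoxa10 a single site 5610 bp upstream with a motif (195.4). Hoxc10 had no site at that distance.

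The posterior genes of HoxC had no such counterpart. In that range Hoxc11, Hoxc12 and Hoxc13 had 0 sites, as had Hoxc4, although the site 6699 bp downstream of Hoxc12 lay not far past its limit. Their paralogues had sites, among them one at Hoxd12 1851 bp upstream with a signal of 228.3, and one at Hoxd13 4547 bp upstream with 147.9. Hoxa13 had one 3669 bp downstream of its start with 210.8, and Hoxb13 one 4440 bp downstream with 63.8. Hoxd11 had one 4164 bp downstream with 124.0, and Hoxa11 had 0. Hoxd4 shared the lack with Hoxc4, but Hoxa4 and Hoxb4 did not. Hoxa4 had a site 5713 bp upstream with 120.85, and Hoxb4 had sites 6517 and 2915 bp upstream with 230.1 and 19.4.

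**Figure D4:**
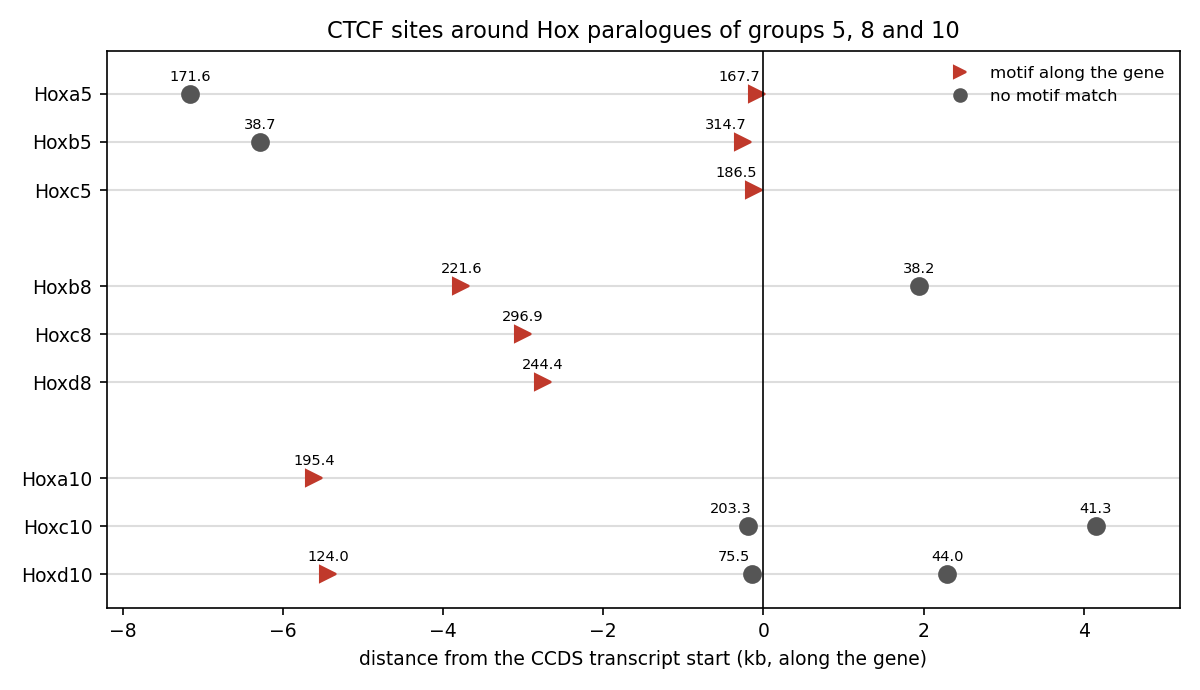
CTCF sites around the CCDS starts of Hox paralogues of groups 5, 8 and 10, by distance along the gene (horizontal, kb), with each site's peak signal printed above it. Triangles mark motifs that run along the gene and circles sites with no match; the group 5 sites sit at 78 to 254 bp upstream and the group 8 sites at 2751 to 3771 bp upstream.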

How the data were processed

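CTCF ChIP-seq peaks of 2 lung samples were deposited as mm10 narrowPeak lists for replicate 1, replicate 2, the pooled reads and 2 IDR thresholds (optimal and conservative), per the deposited README. The signal value and the summit offset (the distance from a peak's start to its summit, unit other) were used as deposited by the authors. Signals were not scaled between lists, so percentiles of signal were taken within a list. For replicate signals and ratios they covered only optimal sites with a peak in both replicate lists. The thresholded lists carry the pooled list's signals. The IDR threshold, the aligner and the caller of peaks are not stated in the sources used here.

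Summits on chromosomes 1 to 19, X and Y were matched to GENCODE mouse release M21 and the GRCm38 patch 6 sequence; 10 optimal peaks elsewhere were not used. A site took the strongest peak of a replicate list that held its summit. The 20-base motif matrix came from the 3000 strongest optimal sites on autosomes with an odd number, without chromosome 15. Its threshold, a log2 score of 10.78, let 1% of windows shifted by 1 kb pass, and it was tested on simulated data. Pairs of motif-bearing sites were up to 500 kb apart.

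The members and lists were chosen with earlier results of these data known. Named were all HoxC genes and sites, the genes beside them, weaker peaks inside the span with a motif or among the strongest 100000, and the strongest 5 of the flanks. Weaker peaks near gene starts and paralogue sites were chosen after their values were seen. Some sequences are not reported here. Intervals are 95% Wilson intervals. Alternatives were other lists, replicates, flanks, starts and motif settings. Python 3.11.15, numpy 2.4.6, pandas 2.3.3, pysam 0.24.0, numba 0.67.0 and statsmodels 0.14.6 were used.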

Additional observations from a re-analysis of the deposited data

How the results depend on the processing

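Under the alternatives, 33 values stayed within 1.5 times the reported count, or near the reported percentile, and 12 moved. With the strongest 10000 optimal sites, the window held 2 sites, both inside the span, of which 1 had a motif, 0 pairs converged, and the strongest stood at percentile 67.5. With 50 kb flanks there were 6 sites, 4 with a motif and 0 convergent pairs. A motif threshold passed by 0.1% of shifted windows left 0 sites with a motif and 0 convergent pairs. Of the 56 weaker peaks, 9 were in both replicate lists and 10 among the strongest 100000 pooled peaks. Leaving out each replicate in turn gave 7 to 11 sites in the window, 5 to 6 with a motif, 1 convergent pair, 5 sites inside the span, 2 genes with a promoter site and percentiles of 93.4 to 94.8 for the strongest site. Without replicate 1, 7 of the 10 sites were held, all 5 inside the span among them; without replicate 2, 10 were. The conservative list gave 8 sites in the window. Starts of CCDS transcripts, chosen after seeing the data, gave 2 genes.

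No paired analysis was possible because both samples belong to 1 group. The lists hold no read counts, so depth set no interval for any signal, and a place without a peak is one where binding was not listed.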
